A study of Mus musculus with 4 samples.

Results

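The genes described here lie around Drd2, the dopamine D2 receptor gene that was targeted in the 2 mutant mouse lines of the study. They were taken by name, by a rule that uses no measured value, as Htr3a, Htr3b, Usp28, Ttc12, Ncam1, Zw10, Zbtb16 and Tmprss5. Earlier results of these data were known when they were chosen. Of these 8 genes, 7 have a probe in the series' probe-to-gene table, 1 probe each, among 16383 genes measured, and Zbtb16 was not analysed here. RNA came from tissue labelled as dorsal raphe nucleus, the main serotonergic nucleus of the midbrain, of C57BL/6J males that were 10 weeks old. They formed 4 groups, namely non-stressed wild type (WT), stressed WT, stressed D2R-KO, which lack the D2 receptor, and stressed D2LR-KO, which lack its long splice form. Stress was forced swimming for 6 min daily over 4 days, with dissection 12 h after the last session. Each group was 1 pool of 5 mice on 1 array, so there is no replicate error and no test between groups is possible. The precision is limited by having 4 arrays. There was no non-stressed knockout group. For the 2 lines, the strain of the embryonic stem cells and the number of backcross generations were not known here.

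In the RefSeq gene table (GRCm38.p6) the genes lie on chromosome 9, with others between some of them, in the order Zbtb16, Htr3a, Htr3b, Usp28, Zw10, Tmprss5, Drd2, Ankk1, Ttc12 and Ncam1. Genes this close to a targeted locus are inherited together with its mutant allele, which is why the neighbours of a targeted gene are looked at on their own. Htr3a and Htr3b encode subunits of the serotonin-gated cation channel, the only ion channel among serotonin receptors. In the forebrain Htr3a marks a large class of GABAergic interneurons. Usp28 is a deubiquitinase of the DNA damage response, Zw10 a kinetochore and membrane-tethering protein, Tmprss5 a membrane-bound serine protease also called spinesin, Ttc12 an assembly factor of ciliary dynein arms, and Ncam1 a cell adhesion molecule of neurons and glia.

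Values are given as the authors' deposited intensities, a linear scale on which each array has a median of 25, and as log2 folds of (signal + 50), which understate differences of dim probes. A member counts as past the limit at 1.5-fold. Between 91.0% and 91.6% of gene spots per array lay above the detection limit, set at 2 SD over the mean of the blank spots (38.02 to 40.34 before any scaling). The brightness around a spot served as an alternative background. Over the gene spots of an array it correlated with the spot's own brightness at 0.876 to 0.958 on the log2 scale. It is thus not independent of the signal, and how much signal its subtraction removes was not tested. The stressed WT array stood apart from the others, with correlations across genes of 0.958 to 0.966 to the other 3 arrays, against 0.990 to 0.994 among those 3. Comparisons with it called between 15.4% and 18% of genes past 1.5-fold, and comparisons without it between 0.993% and 2.15%. The only repeat measurements are 24 spots of each of 2 positive controls, whose log2 difference between arrays had an SD of 0.0966 to 0.227 and which are far brighter than most members. Of the serotonergic markers, 13 of 14 had a probe and all 13 were detected on all 4 arrays, with a summed intensity of 2921 for non-stressed WT and 2559 for stressed WT, and of 4008 for D2R-KO and 4199 for D2LR-KO. Tph2, the serotonin-synthesis enzyme of neurons, read 31.4, 10.7, 264.6 and 151.5 in that order. Against non-stressed WT its log2 folds were 2.13 in D2R-KO and 1.55 in D2LR-KO, or 0.64 and 0.47 with the background around each spot. Of the 13 markers, 4 were at least 1.5-fold higher in D2R-KO and 3 in D2LR-KO, and 0 lower (0.577% and 0.745% of all genes were higher). Their medians were 0.14 and 0.19, or 0.01 and 0.04 with the background around each spot. Fev, another defining marker of these neurons, was not analysed here.

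Htr3a was lower on both knockout arrays than on both WT arrays. Its deposited intensity was 37.4 for non-stressed WT and 43.0 for stressed WT, against 5.7 for D2R-KO and 14.6 for D2LR-KO. The WT readings thus lay close together, both knockout readings lay below them, and D2R-KO was the lowest. Against non-stressed WT the signal was 1.90-fold lower in D2R-KO (log2 fold -0.92) and 1.51-fold lower in D2LR-KO (-0.59). Against stressed WT it was 2.13-fold lower in D2R-KO (-1.09) and 1.69-fold lower in D2LR-KO (-0.76). Stressed WT exceeded non-stressed WT by a log2 fold of 0.17 and D2LR-KO exceeded D2R-KO by 0.33, both short of 1.5-fold. The spot itself read 115.2, 107.1, 48.3 and 58.9 in the order of arrays above, so it was above the detection limit on all 4. The brightness around the Htr3a spot was also lower on both knockout arrays, at 65.9, 83.6, 36.6 and 47.6 in that order. With the background taken around each spot in place of the blank spots, the differences from stressed WT shrank to -0.25 in D2R-KO and -0.18 in D2LR-KO and no longer passed 1.5-fold, while those from non-stressed WT were -0.71 and -0.64. Under that setting stressed WT was itself below non-stressed WT, with a log2 fold of -0.46. In RNA from whole tissue, fewer cells of a type and less RNA per cell cannot be told apart.

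Htr3a was the only member at least 1.5-fold lower in all 4 comparisons of a knockout with a WT array, a pattern looked for after its values were seen and shown by 57 of 15875 detected genes (0.359%). Being that far below non-stressed WT alone in both knockouts was shared by 137 genes (0.863%). These 4 comparisons reuse the same WT and knockout arrays and are not independent of each other. Among the 13 serotonin receptor genes with a probe, Htr3a was the only one past 1.5-fold in any of them with the blank-spot background. The other 12 ranged from -0.13 to 0.27 in D2R-KO and from -0.22 to 0.09 in D2LR-KO against non-stressed WT. Htr2a, the receptor of cortical pyramidal neurons, came nearest against stressed WT, at -0.57 in D2R-KO and -0.49 in D2LR-KO. With the background around each spot Htr2a was at -0.592 and -0.43. It thus passed 1.5-fold in D2R-KO against stressed WT, where Htr3a was at -0.25 and did not.

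Markers of forebrain neurons were also lower on the knockout arrays. The marker lists were chosen with earlier results of these data known, so their counts are descriptions only. Of 12 markers listed for Htr3a-type forebrain interneurons, all with a probe and all detected on every array, 3 were at least 1.5-fold lower and 1 higher in D2R-KO against non-stressed WT (median -0.20), and 3 lower and none higher in D2LR-KO (median -0.13). The 3 were Dlx1, a transcription factor of forebrain interneurons (-1.73 and -1.50), Npy, neuropeptide Y (-1.41 and -0.77), and Cck, cholecystokinin (-1.38 and -0.86). With the background around each spot Dlx1 stayed past 1.5-fold in both (-1.43 and -1.41), Cck in D2R-KO alone (-0.85 and -0.56) and Npy in neither (-0.55 and 0.28), and the list medians were -0.11 and -0.01. Lamp5, named after its values were seen, was the higher one, at 0.85 in D2R-KO. The summed intensity of the 12 was 2886 for non-stressed WT and 2351 for stressed WT, and 1890 for D2R-KO and 1924 for D2LR-KO. Of 10 measured markers of cortex and hippocampus neurons, 9 were lower in D2R-KO and 8 in D2LR-KO against non-stressed WT (medians -1.16 and -1.12), and their summed intensity was 7010, 7769, 2438 and 2509 in the order of arrays used above. Markers of the pons and medulla went the other way, with 3 of 7 higher in each knockout (medians 0.44 and 0.47) and 1 lower in D2LR-KO. Choroid plexus and ependyma markers were lower too, 7 of 10 in each knockout (medians -0.84 and -0.82), and 6 of 10 in stressed WT (median -0.83), all against non-stressed WT. Ttr, the transthyretin of choroid plexus, read 12884, 5720.2, 20.3 and 193.1 in the order of arrays, and the summed intensity of the 10 was 13261, 5895, 147.9 and 316.1. The part of these tissue markers in the Htr3a values was not tested. Over all genes compared, the medians in the knockouts against non-stressed WT were 0.0061 and 0.0020. At least 1.5-fold lower there were 1.49% of genes in D2R-KO and 1.41% in D2LR-KO, and higher 0.577% and 0.745%. In stressed against non-stressed WT 8.12% were lower.

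**Figure D1:**
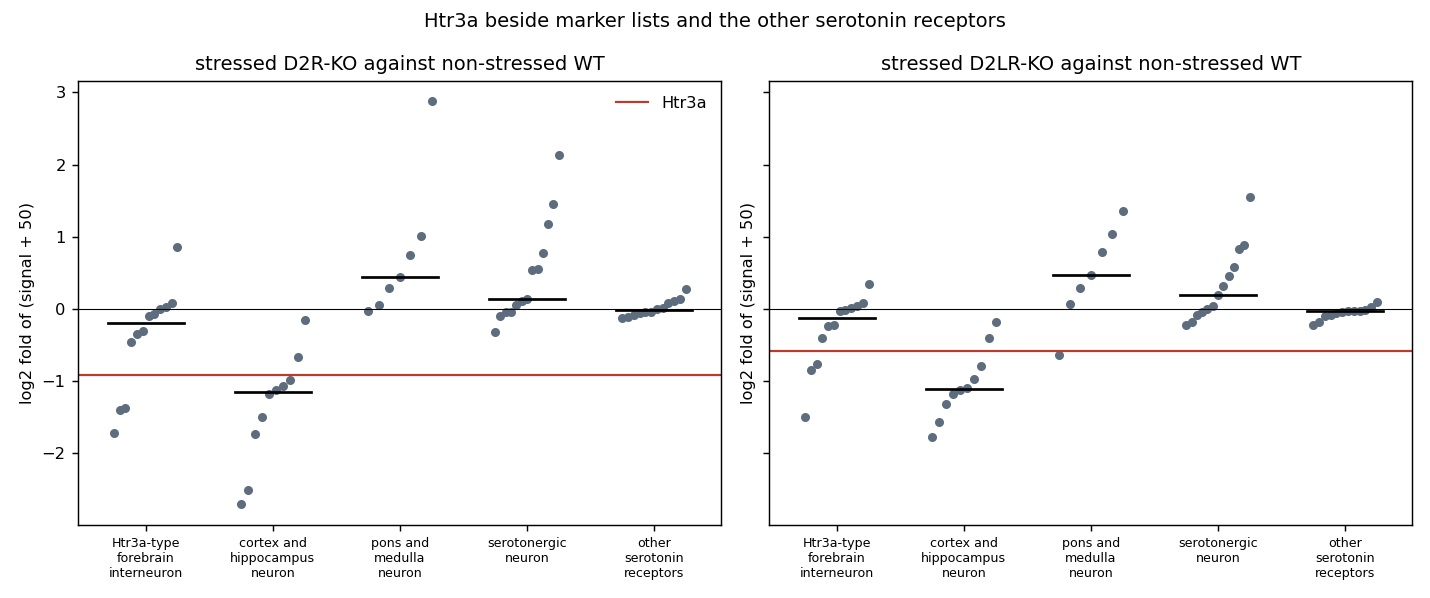
Log2 folds of (signal + 50) against non-stressed WT for D2R-KO (left) and D2LR-KO (right), 1 point per gene, with the median of each group as a black bar and Htr3a as a red line at -0.92 and -0.59. Most cortex and hippocampus markers lie near or below the Htr3a line, interneuron markers spread across it, and all 12 other serotonin receptors lie above it.

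Htr3b, the partner subunit, was at the detection limit. Its spot read 40.6 in non-stressed WT against a limit of 40.2, 41.0 in stressed WT against 40.3, 40.0 in D2R-KO against 39.5, and 37.6 in D2LR-KO against 38.02. It therefore barely passed the limit on 3 arrays and was not detected in D2LR-KO, and no order was read from it. The deposited intensities were 1.0, 1.4 and 1.1 on the first 3 arrays, with no value for D2LR-KO.

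Usp28 was higher in stressed WT than on the other 3 arrays. The deposited intensities were 37.5 for non-stressed WT, 46.8 for D2R-KO and 41.9 for D2LR-KO, and 109.2 for stressed WT. The first 3 values lie together and the stressed WT value lies apart. Stressed WT was 2.33-fold above non-stressed WT (log2 fold 1.22), and D2R-KO and D2LR-KO were 2.08-fold and 2.18-fold below stressed WT (-1.06 and -1.12). The knockouts differed from non-stressed WT by 0.16 and 0.10, short of 1.5-fold. All 6 other settings kept these 3 differences past 1.5-fold, with values from 0.96 to 1.53 for stressed against non-stressed WT. Being at least 1.5-fold above each of the other arrays was shared by 845 of 15875 detected genes (5.32%) on this array. Usp28 had the largest range of the members detected everywhere, 1.22, and the 3 genes nearest to its pattern among 14703 were Hivep3 and Cd96, both at a Euclidean distance of 0.042 between centred log2 signals over 4 arrays, and Wscd2 at 0.049. Within a distance of 0.5 there were 999 genes. Of 9 measured genes listed as USP28 substrates and partners, Usp28 was the only one past 1.5-fold between stressed and non-stressed WT, and Jun, a transcription factor subunit, was the only one against non-stressed WT in the knockouts (-0.95 in D2R-KO and -0.64 in D2LR-KO, or -1.07 and -0.37 with the background around each spot). Over all genes 15.4% were past it between stressed and non-stressed WT, and 2.06% and 2.15% in D2R-KO and D2LR-KO. With the background around each spot Fbxw7 was at -1.25 in stressed against non-stressed WT. With the same background Trp53bp1 was at 0.70 in D2R-KO and 0.69 in D2LR-KO against non-stressed WT. With the blank-spot background Trp53bp1 was at 0.15 and -0.09.

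Zw10 varied little. Its intensities were 71.8 for non-stressed WT and 52.9 for stressed WT, and 85.2 for D2R-KO and 83.1 for D2LR-KO. Both knockout arrays lay above both WT arrays, by a gap of only 0.11 on the log2 scale, and none of the 6 comparisons passed 1.5-fold. With the background around each spot both knockouts lay below both WT arrays, with a gap of 0.14, so the side on which they fell depended on that choice. Among 10 measured genes of the ZW10 complexes at kinetochores and the endoplasmic reticulum, only the tethering subunit Rint1 passed 1.5-fold with the blank-spot background. Its folds were -0.82 in stressed against non-stressed WT and 1.17 and 0.90 in D2R-KO and D2LR-KO against stressed WT. With the background around each spot these became 0.08, 0.41 and 0.04. Other genes of the list then passed 1.5-fold against non-stressed WT. Bnip1 was higher on every stressed array, with folds of 0.73 (WT), 0.87 (D2R-KO) and 0.67 (D2LR-KO). Sec22b was lower for stressed WT (-0.69) and for D2R-KO (-1.42), while Stx18 was higher for stressed WT only (0.67). Sec22b also passed it between D2R-KO and stressed WT (-0.73) and between the knockouts (0.87).

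Tmprss5, the member nearest to Drd2 on this side, was higher on the knockout arrays with the blank-spot background. The intensities were 33.8 for non-stressed WT and 38.3 for stressed WT, and 75.1 for D2R-KO and 56.1 for D2LR-KO, so both knockout values exceeded both WT values and D2R-KO was the highest. D2R-KO was 1.58-fold above non-stressed WT (log2 fold 0.66). The remaining 3 knockout against WT folds were under 1.5-fold, at 0.44 when D2LR-KO was set against non-stressed WT, and at 0.52 and 0.30 when the 2 knockouts were set against stressed WT. The brightness around the Tmprss5 spot moved in the same way, at 46.0, 57.3, 122.0 and 62.5 in the order of arrays. With that background D2R-KO against non-stressed WT turned to -0.33. Across all gene spots of an array the brightness around a spot was also tied to the spot's own (correlations of 0.876 to 0.958). Which of the 2 readings lies nearer to the RNA level was not tested. Of 13 measured genes of the same protease class, between 9 and 12 were detected in a comparison and Tmprss5 in D2R-KO against non-stressed WT was the only value past 1.5-fold in any of the 6. Over all genes 2.06% were past it in that comparison, and from 0.993% to 18% across the 6. Tmprss7 was at 0.42 and 0.34 in the knockouts against non-stressed WT.

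The promoter windows of these neighbours, from 250 bases before to 50 bases after a transcript start, are shown for Usp28, which stood apart in stressed WT, Zw10 and Tmprss5, whose knockout values lay above WT with the blank-spot background only, and Htr3b, which was at the detection limit. They are RefSeq sequences (GRCm38.p6) written 5′ to 3′ on the gene's strand, with each CG in capitals.
Usp28 (chr9:48985135-48985434, plus strand): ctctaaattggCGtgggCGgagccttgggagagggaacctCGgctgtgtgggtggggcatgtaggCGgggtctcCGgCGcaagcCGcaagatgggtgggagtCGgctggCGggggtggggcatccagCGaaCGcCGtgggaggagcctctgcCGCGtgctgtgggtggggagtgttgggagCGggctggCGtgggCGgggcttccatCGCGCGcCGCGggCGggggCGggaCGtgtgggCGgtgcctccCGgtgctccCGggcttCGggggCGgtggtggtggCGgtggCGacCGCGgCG
Zw10 (chr9:49055331-49055630, plus strand): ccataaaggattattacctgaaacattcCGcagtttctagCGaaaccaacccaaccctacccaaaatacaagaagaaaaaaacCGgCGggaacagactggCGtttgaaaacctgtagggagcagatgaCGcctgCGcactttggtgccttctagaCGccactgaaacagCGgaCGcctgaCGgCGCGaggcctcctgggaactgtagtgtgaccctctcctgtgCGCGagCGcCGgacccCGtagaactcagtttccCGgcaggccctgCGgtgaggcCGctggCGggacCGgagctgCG
Tmprss5 (chr9:49102478-49102777, plus strand, the first of 2 overlapping windows): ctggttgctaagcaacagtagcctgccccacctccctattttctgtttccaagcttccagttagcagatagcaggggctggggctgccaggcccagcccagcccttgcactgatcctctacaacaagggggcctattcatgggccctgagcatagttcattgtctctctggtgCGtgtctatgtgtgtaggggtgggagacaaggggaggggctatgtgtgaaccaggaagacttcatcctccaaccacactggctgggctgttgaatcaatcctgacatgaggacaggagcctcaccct
Htr3b (chr9:48964941-48965240, minus strand): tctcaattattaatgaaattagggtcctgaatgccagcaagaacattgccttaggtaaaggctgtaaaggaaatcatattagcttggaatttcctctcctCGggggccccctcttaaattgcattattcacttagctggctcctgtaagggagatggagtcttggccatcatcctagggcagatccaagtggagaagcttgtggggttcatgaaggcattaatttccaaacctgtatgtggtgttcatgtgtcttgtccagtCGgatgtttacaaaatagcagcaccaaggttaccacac
The Usp28 window holds 35 CG, a number reached by 6.95% of all 32851 windows, and that of Zw10 holds 24 (20.0%). The windows of Tmprss5 and Htr3b hold 1 and 2, a number that 94.6% and 85.9% of windows reach, and Ttc12, not printed, holds 14 (36.3%). The glucocorticoid receptor's short recognition motif, AGAACA read on either strand, occurs once in Htr3b and in none of the other 4 members' windows, and is present in 19.0% of all windows. These are descriptions of the letters only. The table gave windows for 5 of the 8 members.

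On the other side of Drd2, Ttc12 was higher in stressed WT, with an intensity of 25.1 there, against 12.5 for non-stressed WT, 13.7 for D2R-KO and 13.1 for D2LR-KO. These 3 lower values lie close together. None of the folds passed 1.5-fold on the (signal + 50) scale, with 0.38 for stressed against non-stressed WT and -0.33 and -0.35 for D2R-KO and D2LR-KO against stressed WT. Of 14 measured genes of axonemal dynein and its assembly, 13 were detected in each comparison, and the only one past 1.5-fold in any was Spag1, at 0.63 in D2R-KO against stressed WT (0.18 with the background around each spot). Over all genes 18% were past it in that comparison.

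Ncam1 was lowest in non-stressed WT, with an intensity of 389.4 there, against 570.0 for stressed WT, 568.0 for D2R-KO and 601.7 for D2LR-KO. The 3 stressed arrays lay together above the non-stressed one. After quantile normalization stressed WT was 1.79-fold above non-stressed WT (log2 fold 0.84), D2R-KO 1.29-fold (0.36) and D2LR-KO 1.47-fold (0.55). The size depended on the scale: in deposited values D2LR-KO was the highest and the stressed WT excess was 0.53, and with each array scaled to a common median it was 0.32, both below 1.5-fold. With the background around each spot all 3 stressed arrays were past 1.5-fold above non-stressed WT, at 1.205 in stressed WT, 0.999 for D2R-KO and 0.79 for D2LR-KO. Non-stressed WT was below each of the other 3 arrays for 3372 of 15875 detected genes (21.2%). Of 17 measured genes of NCAM adhesion and polysialic acid, 2 were at least 1.5-fold higher and 2 lower in stressed against non-stressed WT (median 0.15, or -0.01 with the background around each spot), and none passed in either knockout against non-stressed WT (medians 0.02 and -0.04). Over all genes 7.27% were higher and 8.12% lower in the first comparison, and 2.06% and 2.15% were past 1.5-fold in the knockouts. Besides Ncam1, the higher one of the list was Gdnf, which encodes a neurotrophic factor that binds NCAM (0.89). The lower ones were St8sia4, a polysialic acid transferase (-0.77), and the adhesion molecule Chl1 (-0.70). With the background around each spot Chl1 passed 1.5-fold against non-stressed WT in both knockouts, at -1.18 in D2R-KO and -1.11 in D2LR-KO. Cntn1 (-0.85) and Sptbn1 (-0.594) then passed it in D2R-KO. In stressed against non-stressed WT Cntn1 was then at -1.30 and Prnp at 0.92.

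Drd2 itself read 26.8, 43.8, 20.9 and 48.3 in the order of arrays, with log2 folds against non-stressed WT of -0.16 in D2R-KO and 0.48 in D2LR-KO, the latter -0.28 with the background around each spot. It is unknown here which part of the transcript the probe reads, so this is no check of the deletion.

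**Figure D2:**
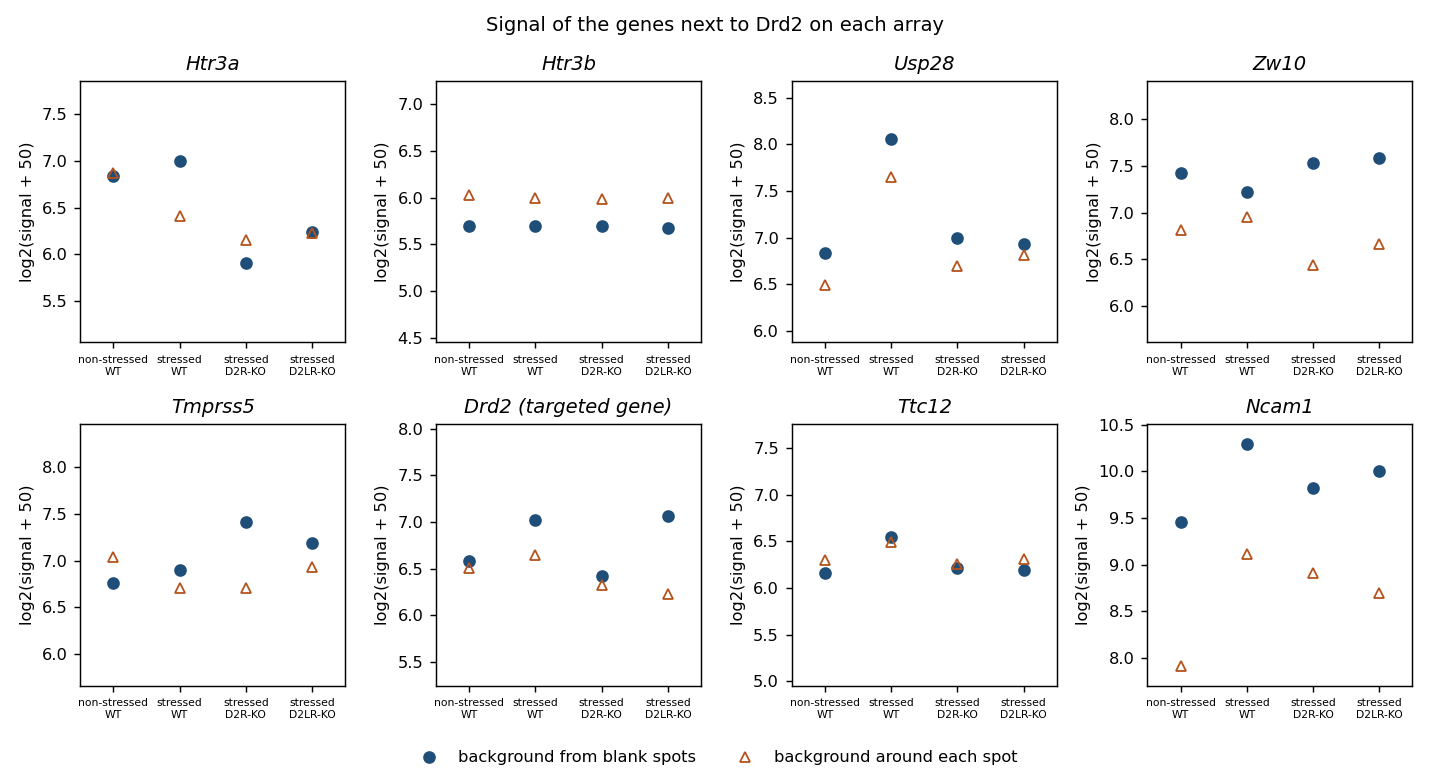
Log2(signal + 50) of the 7 measured members and Drd2 on the 4 arrays, 1 value per array, with the background from the blank spots (filled circles) or around each spot (open triangles); every panel spans the same range of 2.8. Htr3a is lower on both knockout arrays with either background, Usp28 is highest in stressed WT with either, and Zw10 and Tmprss5 are higher in the knockouts only with the blank-spot background.

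Over the 7 members, 2 were past 1.5-fold in stressed against non-stressed WT, both higher (Usp28 and Ncam1), beside 15.4% of all genes (7.27% higher and 8.12% lower). Against non-stressed WT, 2 were past it in D2R-KO (Tmprss5 higher, Htr3a lower; 2.06% of all genes, with 0.577% higher and 1.49% lower) and 1 in D2LR-KO (Htr3a, lower; 2.15%, with 0.745% higher and 1.41% lower). Against stressed WT, 2 were past it in each knockout, Htr3a and Usp28, both lower (18% of all genes in D2R-KO, with 9.33% higher and 8.64% lower, and 16.9% in D2LR-KO, with 8.72% higher and 8.2% lower). Between D2LR-KO and D2R-KO there was none (0.993%, with 0.66% higher and 0.333% lower). At 2-fold only Usp28 was left in stressed against non-stressed WT (3.61% of all genes), none in D2R-KO (0.436%) or D2LR-KO (0.417%) against non-stressed WT, Htr3a and Usp28 in D2R-KO against stressed WT (5.29%), Usp28 in D2LR-KO against stressed WT (4.44%), and none between the knockouts (0.199%). The members' medians were 0.17, 0.11, 0.10, -0.33, -0.29 and -0.02 in this order of comparisons, beside medians of all genes between -0.01 and 0.01. With the blank-spot background both knockout arrays lay above both WT arrays for 2 of 7 members (Zw10 and Tmprss5, 19.8% of all detected genes) and below for Htr3a (19.5%). Htr3b, at the detection limit, is left out of this reading. In the 3 comparisons without the stressed WT array, Htr3a and Tmprss5 were the only members past 1.5-fold, and with the background around each spot Htr3a and Ncam1 were.

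**Figure D3:**
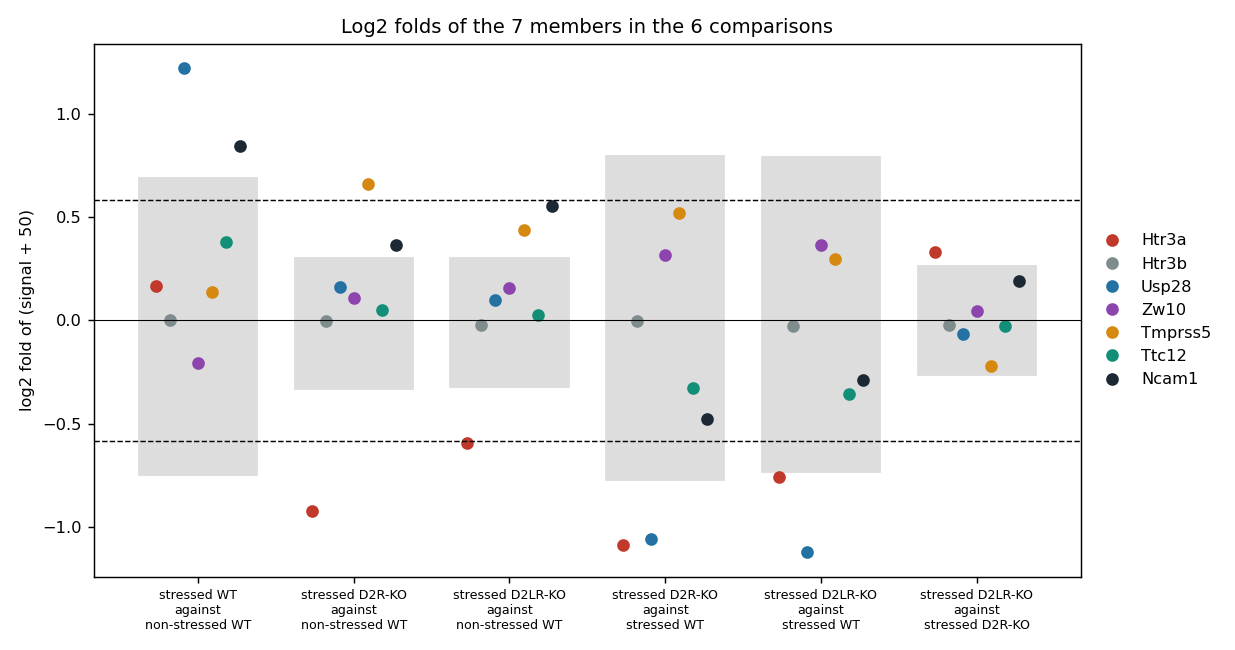
Log2 folds of (signal + 50) of the 7 members in the 6 comparisons, 1 point per gene; grey boxes span the 5th to the 95th percentile of all detected genes, and dashed lines mark 1.5-fold. Htr3a lies below the box in all 4 comparisons of a knockout with WT, and Usp28 outside it in the 3 comparisons that include stressed WT.

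The wider neighbourhood was read in the same way. Within 2 Mb of the start of Drd2 the RefSeq table places 45 other protein-coding genes, and 38 had a probe, 7 of them members. Against non-stressed WT, 1 of 37 detected genes was higher and 3 lower in D2R-KO, and none of 38 higher and 2 lower in D2LR-KO, with medians of -0.01 and 0.01, beside 2.06% and 2.15% of all genes past 1.5-fold in either direction. Besides Htr3a and Tmprss5 these were Cadm1, a synaptic adhesion molecule at the far end of the window (633.2, 360.7, 408.7 and 309.9 in the order of arrays; -0.76 in D2R-KO and -1.02 in D2LR-KO), and Cryab, a small heat shock protein abundant in oligodendrocytes (768.4, 846.3, 549.2 and 589.2; -0.64 in D2R-KO). With the background around each spot Tmprss5 fell short, at -0.33 in D2R-KO. Dlat then passed 1.5-fold upward, at 1.53 in D2R-KO and 0.84 in D2LR-KO, as did Ncam1, at 0.999 and 0.79. In D2LR-KO Nkapd1 (-0.62) and Cryab (-0.81) then passed it too, both lower.

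Against stressed WT, 3 of 38 neighbours were higher and 7 lower in each knockout, with medians of -0.10 and -0.10. Over all genes 9.33% were higher and 8.64% lower in D2R-KO, and 8.72% higher and 8.2% lower in D2LR-KO. The lower ones in D2R-KO besides Htr3a and Usp28 were Nkapd1 (-1.29), Cryab (-1.10), the carotenoid-cleaving enzyme Bco2 (-0.98), Pts, which makes the tetrahydrobiopterin cofactor of serotonin synthesis (-0.91), and Nxpe4 (-0.72). In D2LR-KO Ankk1, the kinase gene between Drd2 and Ttc12, took the place of Nxpe4 at -0.60, with Nkapd1 at -1.30, Cryab at -0.89, Bco2 at -0.86 and Pts at -0.75. The higher ones were Dlat, a pyruvate dehydrogenase subunit (0.64 in D2R-KO and 0.65 in D2LR-KO), Ppp2r1b, a phosphatase scaffold subunit (0.63 and 0.71), and 1110032A03Rik (0.71 and 0.60). With the background around each spot several of these fell short of 1.5-fold: Nxpe4 in D2R-KO (-0.31), Ppp2r1b in both knockouts (0.38 and 0.36), and Ankk1 (-0.13), Dlat (-0.01) and 1110032A03Rik (0.43) in D2LR-KO. Rexo2 then newly passed it upward, at 0.97 in D2R-KO and 0.99 in D2LR-KO. For Nkapd1 the intensities were 272.3 for non-stressed WT, 291.5 for D2R-KO and 267.4 for D2LR-KO, and 543.8 for stressed WT, which was the array that differed. Both knockouts lay above both WT arrays for 7 of the 38 and below for 13, beside 19.8% and 19.5% of all detected genes. The 13 include Htr3b, which was at the detection limit and from which no order was read.

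**Figure D4:**
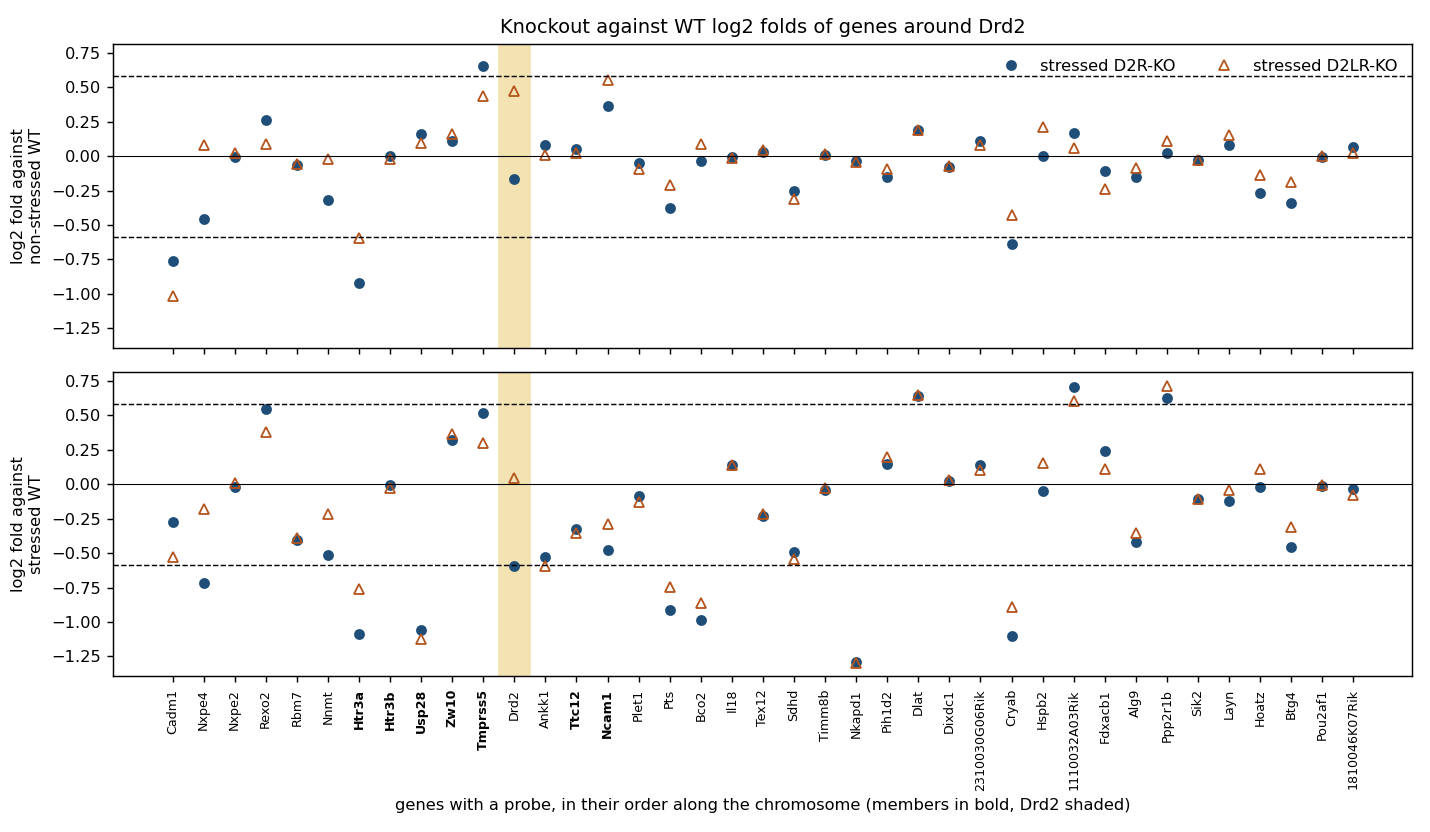
Log2 folds of (signal + 50) of D2R-KO (circles) and D2LR-KO (triangles) against non-stressed WT (top) and stressed WT (bottom) for the 38 neighbours with a probe and Drd2, in their order along the chromosome; dashed lines mark 1.5-fold. Against non-stressed WT most neighbours lie near 0, and Cadm1, Htr3a, Tmprss5 and Cryab pass the lines; against stressed WT 10 neighbours in each knockout do, and Drd2 in D2R-KO.

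Zbtb16 could not be read, but lists tied to its role were. Its product is a zinc finger repressor whose gene is switched on by glucocorticoids. Of 16 measured genes known to be induced by glucocorticoids, 1 was higher and 6 lower in stressed against non-stressed WT (median -0.29). Against non-stressed WT, 4 were lower in D2R-KO (median -0.24) and 5 in D2LR-KO (median -0.27). Over all genes 8.12%, 1.49% and 1.41% were lower in these comparisons, and 7.27% were higher in the first. With the background around each spot the medians were -0.11, -0.15 and -0.09. Sgk1, counted lower in all 3 comparisons, then turned higher, at 0.86, 0.87 and 0.75. The growth inhibitor Ddit4 was the lowest on all 3 stressed arrays, with -1.76 for stressed WT, -2.04 for D2R-KO and -2.25 for D2LR-KO. Of 12 measured BTB zinc finger and corepressor genes, 3 were lower in stressed against non-stressed WT (median -0.11, or 0.12 with the background around each spot), led by the corepressor Ncor1 at -1.17 (-0.41 with that background). In D2R-KO Zbtb20 was the only one past 1.5-fold against non-stressed WT, at -0.83, but at 0.81 once the local background was used. In D2LR-KO none was, but with the local background Zbtb20 was at 0.81 there too. Zbtb17 was then at 1.02 in D2R-KO and 0.81 in D2LR-KO. Of 17 measured nicotinic receptor subunits and chaperones, relatives of the Htr3a channel, 1 was past 1.5-fold in stressed against non-stressed WT, Chrna2 at 0.79 (0.34 with the background around each spot), and none in a knockout against non-stressed WT. With the background around each spot Tmem35a was past it in both knockouts, at -1.16 in D2R-KO and -0.98 in D2LR-KO.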

How the data were processed

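RNA of 4 pools, 1 per group, was measured on single-colour arrays, each scanned at 3 gains. Per the file headers, the scanner files hold the median intensity of each spot and around it, without background subtraction. The authors' deposited value table holds linear intensity, from the values equal to the spot median minus a constant (36.7 to 38.8) divided by a factor (1.51 to 2.05) per array; the submitters' own steps were not known here. Spot medians were background-corrected by normexp with the 2736 blank spots as negative controls (limma 3.58.1, R 4.3.3, offset 50), put on the log2 scale and quantile-normalized over all 4 arrays. Genes were named by the series' probe table, with 3883 older symbols updated through RefSeq. For genes with several probes the brightest was kept, and 9 probes marked not usable were left out. Folds past 1.5-fold count where at least 1 of the arrays was above the detection limit. Named are the members, Drd2, neighbours within 2 Mb past 1.5-fold in a knockout comparison, the 3 genes nearest in pattern to the member with the largest range, and up to 3 genes per list, besides Lamp5. Some further genes are named for their value with the background around each spot. Members and lists were chosen with earlier results of these data known. The procedure was tested on simulated data. Alternatives were the background around each spot, an offset of 16, median scaling, quantile normalization over 2 arrays, the deposited values with 16 added, the mean of probes, a 2-fold limit, detection at 3 SD and a window of 1 Mb.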

Additional observations from a re-analysis of the deposited data

How the results depend on the processing

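No setting gives a replicate error, since each group is 1 array, and dim probes such as Htr3b are limited by the signal over the blank spots. Quantile normalization over 2 arrays, the mean of probes and detection at 3 SD left every count of members or neighbours within 1.5 times its main value; the cause of the other changes was not tested unless the setting itself narrows the count. The Tmprss5 value of D2R-KO against non-stressed WT turned from 0.66 to -0.33 with the background around each spot. Of 7 members, those past the limit in stressed against non-stressed WT went from 2 to 1 with median scaling, with the deposited values and at 2-fold. In D2R-KO against non-stressed WT they went from 2 to 0 at 2-fold. With the background around each spot they stayed at 2 there, but Ncam1 (0.999) took the place of Tmprss5. In D2LR-KO against non-stressed WT they went from 1 to 2 with the background around each spot, with offset 16 and with the deposited values, and to 0 at 2-fold. Against stressed WT they went from 2 to 1 in each knockout with the background around each spot, and in D2LR-KO to 1 at 2-fold. Between the knockouts they went from 0 to 1 with offset 16. Of the 38 neighbours, those past 1.5-fold went from 6 to 10 with offset 16 in stressed against non-stressed WT, from 2 to 6 in D2LR-KO against non-stressed WT and from 10 to 6 in D2LR-KO against stressed WT with the background around each spot. Between the knockouts they went from 0 to 2 with that background, 2 with offset 16 and 1 with the deposited values. The window of 1 Mb, with 11 genes, gave 3, 2, 1, 2 and 3 in place of 6, 4, 2, 10 and 10 in the first 5 comparisons. No paired analysis was possible because each group holds 1 array.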
